A study of Mus musculus with 6 samples.

Results

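The TRIM genes were followed in marrow progenitors sorted by a Hes1 reporter. A member was any probe set annotated with exactly 1 gene symbol made of Trim and a digit, and a gene with several probe sets was represented by the one of highest mean over the 6 arrays. This gave 58 TRIM genes among 18193 measured genes, from 111 of 45037 probe sets. Another 5 probe sets named a TRIM gene together with a second gene and were left out. Of the 58 genes, 27 had 1 probe set and 31 had several.

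The cells came from the bone marrow of 6-week-old male mice of genotype Hes1 GFP/WT, which carry green fluorescent protein at one copy of Hes1, a target gene of Notch signalling. They lacked lineage markers and Sca1 and carried cKit on their surface, the phenotype of myeloerythroid progenitors, and they were split into GFP-positive and GFP-negative cells. Both fractions carried the reporter allele, and no other genotype or treatment was given. Each group had 3 Affymetrix arrays. The labels do not say whether arrays came from separate animals, so the p-values measure the spread between these arrays, which may be technical.

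TRIM proteins typically share a RING finger, B-boxes and a coiled coil, although some members, such as Trim16 and Trim44, lack the RING finger. The RING finger takes ubiquitin from an E2 conjugating enzyme and passes it to a substrate, and the end of the protein, which differs between members, binds that substrate. Some members sense or restrict viruses and are themselves induced by interferon, the TIF1 members act on chromatin, and others work at the cytoskeleton or in blood cell maturation.

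Values below are log2 of the deposited intensity, differences are GFP-positive minus GFP-negative on that scale, and a gene was called when its limma p, adjusted over all 45037 probe sets, was under 0.05. Array medians lay between 59.9 and 64.8 in linear intensity. Hes1 was 2.40-fold higher in GFP-positive cells (adjusted p = 0.00141), at 7.15 ± 0.04 against 5.88 ± 0.14 in GFP-negative cells (SD, n = 3 each). Kit averaged 11.17 ± 0.06 in GFP-positive and 11.42 ± 0.11 in GFP-negative cells and was not called (adjusted p = 0.138). One array of each group stood apart for immunoglobulin transcripts: Jchain read 8.65 in GFP-positive array 1 and 8.85 in GFP-negative array 3, against 3.64 to 4.08 in the other 4. Calls that were lost without these 2 arrays are given beside each gene.

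Among the 58 TRIM genes, 2 were higher in GFP-positive cells, 12 were lower and 44 were not called. Trim2 and Trim10 were higher. Trim5, Trim6, Trim12a, Trim30a, Trim30d and Trim34a, which lie in 1 group of TRIM genes on chromosome 7, were lower, as were Trim14, Trim16, Trim35, Trim36, Trim44 and Trim45. Over all genes, 8.15% were called higher and 9.92% lower. Called TRIM genes that passed 2-fold were 2 higher and 5 lower. Without both immunoglobulin arrays the counts were 2 higher and 7 lower, and without GFP-negative array 2, GFP-negative array 3 or GFP-positive array 2 alone they were 2 higher and 8 lower.

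**Figure D1:**
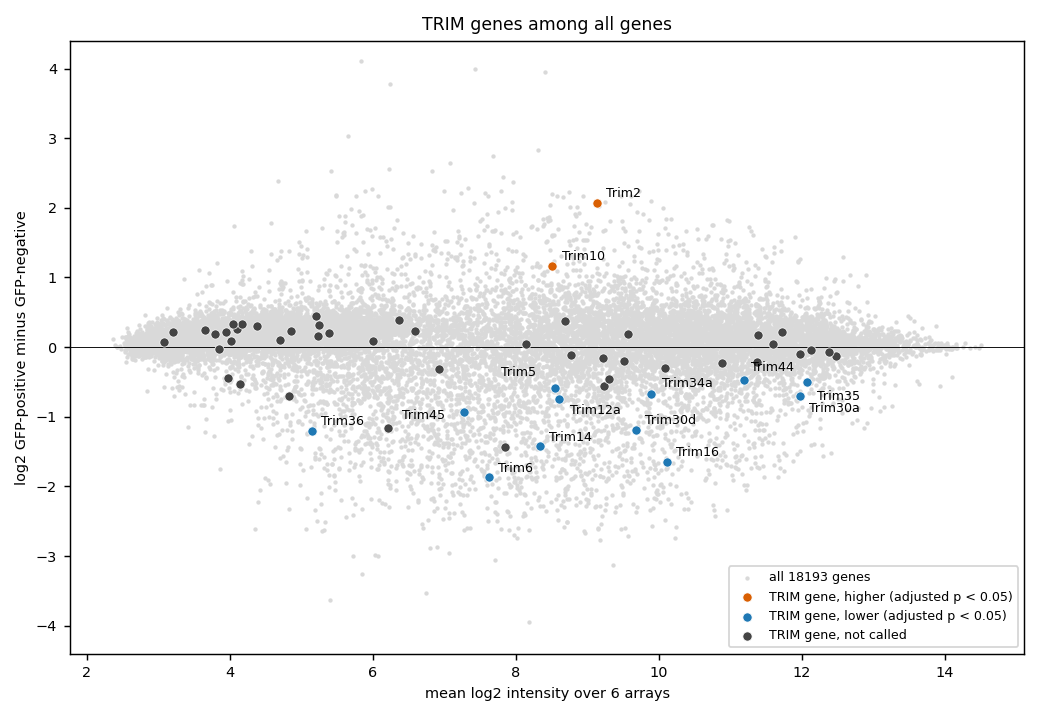
Each point is a gene, with its mean log2 intensity over the 6 arrays on the horizontal axis and its log2 difference, GFP-positive minus GFP-negative, on the vertical axis. The 58 TRIM genes (orange higher, blue lower, dark grey not called) are drawn over all 18193 genes (light grey). Trim2 at 2.08 and Trim10 at 1.17 stand above 0, and the 12 lower genes run down to -1.87 for Trim6.

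The family's median difference was -0.05, against 0.11 over all genes, and 46.6% of TRIM genes lay above 0, against 64.6% of all genes. The sign of the family's median rested on the scaling, since it became 0.02 when each array's median was subtracted. The all-gene median moved with it, to 0.19, so the family's median stayed below that of all genes. Calls lay mostly among the brighter genes. Of the 32 TRIM genes above the all-gene median signal of 7.21, 2 were higher and 11 lower, where all genes above it gave 11.6% higher and 15.2% lower. Trim36 was the only call among the 26 dimmer members, 19 of which lay above 0. Shares were not taken for dimmer genes alone. Over genes of any signal, 8.15% were called higher, 9.92% were called lower and 64.6% lay above 0. By probe set, 5 of 111 were called higher and 16 lower, against 6.35% and 7.66% of all probe sets. No gene had probe sets called in both directions, and none was called on a dimmer probe set alone.

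Promoter stretches of the chromosome 7 genes are shown because nearly all measured members of that group were lower. They do not show whether array probes tell the copies apart, which was not tested. Promoter windows of 300 bases, from 250 before to 50 after the transcription start, came from RefSeq (GRCm38.p6), and 47 of the 58 genes had one. Each stretch below is 30 bases, 5′ to 3′ on the gene's strand, and capitals mark the match to GAAANNGAAA, the letters searched for an interferon response element, which on these strands reads as its reverse complement TTTCNNTTTC.
Trim34a, chr7:104244457-104244486, plus strand: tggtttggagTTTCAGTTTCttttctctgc
Trim5, chr7:104288136-104288165, minus strand: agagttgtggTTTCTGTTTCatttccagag
Trim12a, chr7:104315466-104315495, minus strand: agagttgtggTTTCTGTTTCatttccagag
Trim12c, chr7:104353359-104353388, minus strand: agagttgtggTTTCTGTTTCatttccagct
Trim30a, chr7:104465210-104465239, minus strand: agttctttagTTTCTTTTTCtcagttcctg
Trim30d, chr7:104507871-104507900, minus strand: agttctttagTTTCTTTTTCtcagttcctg

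The stretches of Trim5 and Trim12a were the same letter for letter, as were those of Trim30a and Trim30d. Counted from the start site, the element began at position -49 in Trim5, -29 in Trim12c, -36 in Trim30a and -41 in Trim30d, and at position 11 in Trim34a and Trim12a. Trim30a has a second RefSeq window, which also held the element. On either strand, these letters were found in 3.44% of all 32851 windows and in 9 of the 47 TRIM genes with a window. The share is per window and the count per gene, and a gene with several windows has more chances to hold the letters. Those were the 6 genes above, Trim21 and Trim26, which were not called, and Trim2, which was higher. Of the 8 lower genes with a window, 5 held the element and Trim6, Trim44 and Trim45 did not. The element was thus present in higher, lower and uncalled members. In Trim2 it lay in the window at chr3:84212789-84213088, and the other RefSeq windows of Trim2 did not hold it. GAGGAAGT, letters bound by the myeloid factor PU.1, was found on either strand in 3.20% of windows and in Trim2, Trim5, Trim12a, Trim12c and Trim24, without overlapping the interferon letters. In Trim2 those letters lay in a different window from the interferon letters. CCNCACCC, a CACCC box, was found on either strand in 16.6% of windows and in 11 TRIM genes, none of them called. The called genes Trim14, Trim16, Trim35 and Trim36 had no window and were not searched.

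Among the called genes with a window, 2 higher and 8 lower, only Trim10 held AGATAA, letters bound by GATA factors. These letters were found on either strand in 11.2% of windows and otherwise in Trim39 and Trim72 of the family. The 250 bases upstream of the Trim10 start are shown because Trim10 is the member with a known role in red cell maturation. They lie at chr17:36869324-36869573 on the plus strand, with the reverse complement of AGATAA in capitals, beginning at position -163 from the start.
Trim10: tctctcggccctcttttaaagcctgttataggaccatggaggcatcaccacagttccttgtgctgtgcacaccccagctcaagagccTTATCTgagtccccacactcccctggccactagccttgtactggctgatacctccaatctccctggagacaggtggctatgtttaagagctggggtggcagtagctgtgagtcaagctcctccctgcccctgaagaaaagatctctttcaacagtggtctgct

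Trim2 had the largest difference of the family. It encodes a ligase with NHL repeats that is known in neurons, where it binds neurofilament light chain. Its signal was 9.90, 10.33 and 10.26 in GFP-positive arrays 1 to 3, against 7.93, 8.32 and 8.01 in GFP-negative arrays. The lowest GFP-positive array thus lay well above the highest GFP-negative one. The means were 10.17 ± 0.23 and 8.09 ± 0.21, a 4.21-fold rise (log2 difference 2.08, SE 0.16, adjusted p = 0.00126). All 6 Trim2 probe sets lay above 0 and 4 of them were called. The other NHL members, Trim3, Trim32 and Trim71, were not called. Trim32, a ligase of muscle proteins, read below the GFP-negative range in every GFP-positive array but missed the threshold (-0.45, adjusted p = 0.150).

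Trim10 encodes a RING finger protein needed for terminal differentiation of mouse erythroid cells. It read 8.77, 9.19 and 9.33 in GFP-positive arrays, against 7.96, 7.90 and 7.91 in GFP-negative arrays. The groups did not overlap, and the GFP-negative arrays were nearly equal. The rise was 2.25-fold (log2 difference 1.17, SE 0.16, adjusted p = 0.00591), with means of 9.10 ± 0.29 in GFP-positive and 7.93 ± 0.03 in GFP-negative cells. Among erythroid markers, 6 of 11 were higher and 0 lower. Their summed linear intensity was 57959 to 64438 in GFP-positive and 43164 to 43935 in GFP-negative arrays. Of the 11, 10 lay above the all-gene median signal, where 11.6% of genes were called higher. Alas2 (-0.11), Slc4a1 (0.22) and Hba-a1 (0.25) were among the markers not called. The part of these markers in the Trim10 result was not tested. In these bulk samples a change in the share of a cell type and a change in RNA per cell cannot be told apart. Trim10 lies on chromosome 17 among other TRIM genes, and none of Trim39, Trim26, Trim15, Trim40 and Trim31 was called there, with differences from -0.31 to 0.34. Trim58, another TRIM gene of red cell maturation, was not analysed here.

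The chromosome 7 group holds relatives of TRIM5, the primate factor that restricts retroviruses. RefSeq orders 10 protein-coding genes there, as Trim6, Trim34a, Trim5, Trim12a, Trim34b, Trim12c, Trim30b, Trim30c, Trim30a and Trim30d. Of these, 7 were measured and 6 were lower in GFP-positive cells, with a median difference of -0.70 and a range of -1.87 to -0.56 over the 7. Their median signal was 8.42, 8.94 and 8.90 in GFP-positive arrays and 9.67, 9.53 and 9.32 in GFP-negative arrays. Because the copies are closely related, probes for Trim12a and Trim12c, Trim30a and Trim30d, or Trim34a may also bind transcripts of their neighbours, and the single-gene values are uncertain to that extent.

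Trim6, whose human counterpart makes free ubiquitin chains that activate the kinase IKKε, had the largest difference of the group. It read 6.78, 7.31 and 5.99 in GFP-positive arrays, against 8.22, 8.49 and 8.97 in GFP-negative arrays. Its arrays varied widely, with SDs of 0.67 in GFP-positive and 0.38 in GFP-negative cells, but the groups did not overlap. The fall was 3.65-fold (log2 difference -1.87, SE 0.36, adjusted p = 0.0202). A second, dimmer probe set differed by 0.04, and without the immunoglobulin arrays the adjusted p was 0.136. The call was also lost without GFP-negative array 2 or 3 or GFP-positive array 1 alone (adjusted p 0.0627, 0.0690 and 0.0532).

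Trim30d read 9.43, 8.94 and 8.90 in GFP-positive arrays, against 10.21, 10.37 and 10.24 in GFP-negative arrays. It fell 2.28-fold (-1.19, SE 0.16, adjusted p = 0.00633), and its second, dimmer probe set gave -0.42 (adjusted p = 0.443). Its neighbour Trim30a, which restrains Toll-like receptor signalling in mouse macrophages, read 11.64, 11.68 and 11.57 in GFP-positive arrays and 12.30, 12.36 and 12.34 in GFP-negative arrays. That difference was small but far wider than the spread within either group, and both of its probe sets were called. It amounted to a 1.63-fold fall (-0.70, SE 0.09, adjusted p = 0.00417), with an adjusted p of 0.0554 without the immunoglobulin arrays.

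Trim34a read 9.35, 9.65 and 9.65 in GFP-positive arrays, against 10.17, 10.35 and 10.16 in GFP-negative arrays, a 1.60-fold fall (-0.68, SE 0.12, adjusted p = 0.0163). Its second probe set gave -1.09 (adjusted p = 0.00273), and without the immunoglobulin arrays the first had an adjusted p of 0.0812 (0.0618 with GFP-negative array 2 left out and 0.0511 with array 3 of that group left out). Trim12a read 8.29, 8.19 and 8.21 in GFP-positive arrays, against 9.20, 9.01 and 8.72 in GFP-negative arrays, a 1.68-fold fall (-0.75, SE 0.14, adjusted p = 0.0176). Its second, dimmer probe set gave 0.22 (adjusted p = 0.484), and the mean of both was not called (adjusted p = 0.183). Neither gene's groups overlapped, although Trim12a lost its call without GFP-negative array 2, GFP-positive array 2 or GFP-positive array 3. Trim5 read 8.42, 8.19 and 8.14 in GFP-positive arrays, against 8.86, 8.94 and 8.73 in GFP-negative arrays, a 1.51-fold fall (-0.59, SE 0.12, adjusted p = 0.0218). Its call held without GFP-negative array 3 or GFP-positive array 1 and was lost without any 1 of the other 4 arrays (adjusted p up to 0.0801). Trim12c was the measured member that was not called, at 8.17, 9.30 and 9.35 in GFP-positive arrays and 9.67, 9.53 and 9.32 in GFP-negative arrays (-0.56, adjusted p = 0.285). GFP-positive array 1 set most of its difference, which was -0.18 without that array.

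**Figure D2:**
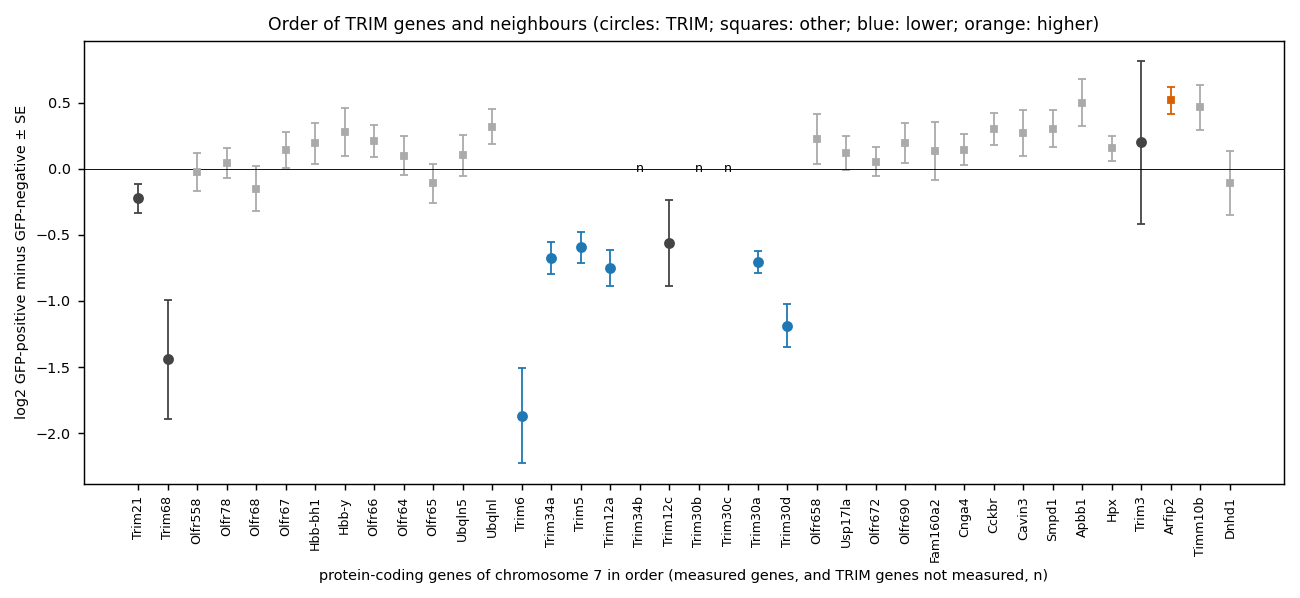
Measured genes along chromosome 7 are placed in their order, with the log2 difference, GFP-positive minus GFP-negative, and its SE on the vertical axis. TRIM genes are circles and other genes squares, blue and orange mark genes called lower and higher, and n marks TRIM genes that were not measured. The 7 measured genes from Trim6 to Trim30d lie between -1.87 and -0.56, and the squares between Trim21 and Trim3 lie between -0.15 and 0.50.

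The group was set beside its neighbours. Between Trim21 and Trim3, 22 measured genes are no TRIM genes, many of them olfactory receptors, and 0 were called by limma (lowest adjusted p = 0.113), with differences from -0.15 to 0.50. Only 2 of these 22 had a signal above the median of all genes, so most were dim. Just beyond Trim3, Arfip2 was called higher (0.52, adjusted p = 0.0220). The TRIM genes at the edges of the stretch, Trim21 (-0.23), Trim68 (-1.44, adjusted p = 0.0849) and Trim3 (0.20), were not called. Trim21 and Trim68 nevertheless read below the GFP-negative range in every GFP-positive array.

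Markers of granulocytes and monocytes moved the same way as the chromosome 7 genes. All 13 measured markers were lower, and their summed linear intensity was 35165 to 44473 in GFP-positive and 85567 to 90789 in GFP-negative arrays. Stem and multipotent markers were lower in 8 of 8. Among markers of other cells, 0 of 12 B and plasma cell markers were higher and 2 lower, 2 of 12 T and natural killer cell markers were higher and 1 lower, 1 of 7 megakaryocyte markers was higher, and 3 of 10 stroma and endothelium markers were lower. These counts are to be read against the 8.15% of all genes called higher and 9.92% called lower. The part of these markers in the TRIM results was not tested.

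Interferon response genes were read beside the group. Of 26 measured genes, 2 were higher and 4 lower, with a median of -0.13. Oasl1 (1.42) and Isg20 (1.29), which act against viral RNA, were higher, with adjusted p of 0.00374 and 0.00183. Mx1 (-1.86, adjusted p = 0.0207), Gbp3 (-1.71, adjusted p = 0.00298), Gbp2 (-1.30, adjusted p = 0.0450) and Parp14 (-0.58, adjusted p = 0.0364) were lower. Called genes of this list thus moved in both directions, and their numbers are to be read against the 8.15% of all genes called higher and 9.92% called lower.

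Trim14, an adaptor that links the mitochondrial protein MAVS to antiviral signalling in human cells, was the called member among 7 TRIM genes of nucleic acid and virus sensing. It read 7.58, 7.64 and 7.66 in GFP-positive arrays, against 9.13, 9.05 and 8.97 in GFP-negative arrays. Its groups were tight and lay far apart. The fall was 2.68-fold (-1.42, SE 0.09, adjusted p = 0.00108), and its second, dim probe set gave -0.19 (adjusted p = 0.238). The other 6 were not called: Trim25, which ubiquitinates the RNA sensor RIG-I, differed by -0.09, Trim21, a cytosolic antibody receptor, by -0.23, Trim56 by -0.22, Trim65, a ligase of the RNA sensor MDA5, by -0.29, Trim26 by -0.31 and Trim23 by 0.19. A dimmer Trim25 probe set gave 0.63 (adjusted p = 0.197) and another -0.04, and neither was called.

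A list of 12 measured genes of RIG-I signalling and cytosolic DNA sensing held 0 higher and 3 lower genes (median -0.12). Shares over all genes were 8.15% higher and 9.92% lower. Of the 12, 10 lay above the all-gene median signal, where 15.2% of genes were called lower. The genes of RIG-I, MDA5 and MAVS were not called, with Ddx58 at -0.69, Ifih1 at 0.33 and Mavs at 0.06. Sting1, the adaptor of cytosolic DNA sensing, averaged 8.04 ± 0.40 in GFP-positive and 10.31 ± 0.04 in GFP-negative cells, a 4.84-fold fall (adjusted p = 0.00167). Cgas, the DNA sensor upstream of it, fell by 0.90 (adjusted p = 0.00723), and Ikbke, which encodes IKKε, fell by 1.27 (adjusted p = 0.00391).

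Trim16, a member without a RING finger that takes part in clearing damaged lysosomes in human cells, read 9.18, 9.30 and 9.39 in GFP-positive arrays, against 11.01, 10.91 and 10.89 in GFP-negative arrays. Every GFP-positive array lay more than 1 log2 unit below every GFP-negative one. The fall was 3.12-fold (-1.64, SE 0.10, adjusted p = 0.00108), and its second probe set gave -1.26 (adjusted p = 0.00967). Trim35, first isolated from mouse erythroleukaemia cells that switched to a myeloid fate, read 11.87, 11.66 and 11.93 in GFP-positive arrays, against 12.23, 12.34 and 12.37 in GFP-negative arrays. Its fall was 1.41-fold (-0.50, SE 0.11, adjusted p = 0.0304), and the call was lost whichever array was left out (adjusted p 0.0515 to 0.105) and without both immunoglobulin arrays (adjusted p = 0.157). Of the dimmer Trim35 probe sets, one was called at -0.66 (adjusted p = 0.0413) and another was not, at 0.03 (adjusted p = 0.853). Trim16 and Trim35 were the called genes among 16 further members that end in a PRY-SPRY domain, whose median was -0.04.

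Trim44, which carries a zinc finger of the ubiquitin protease type in place of a RING finger, read 10.89, 10.92 and 11.02 in GFP-positive arrays, against 11.42, 11.43 and 11.42 in GFP-negative arrays. The GFP-negative arrays differed by hardly anything, with an SD of 0.0042. The fall was 1.39-fold (-0.48, SE 0.09, adjusted p = 0.0156), but its 2 dimmer probe sets lay above 0, at 0.36 and 0.13, the mean over all 3 was not called (adjusted p = 0.973), and without the immunoglobulin arrays the adjusted p was 0.119. Its call was also lost without GFP-negative array 2, GFP-negative array 3 or GFP-positive array 2 alone (adjusted p up to 0.0620). Trim45 read 7.06, 6.68 and 6.67 in GFP-positive arrays, against 7.77, 7.68 and 7.76 in GFP-negative arrays, a 1.90-fold fall (-0.93, SE 0.13, adjusted p = 0.00717). Trim36, a microtubule-binding member of the COS box group, was dim, at 4.71, 4.72 and 4.20 in GFP-positive arrays and 5.91, 5.88 and 5.45 in GFP-negative arrays. It fell 2.30-fold (-1.20, SE 0.20, adjusted p = 0.0118), while its second probe set, of like signal, gave 0.45 (adjusted p = 0.0851) and the mean of both was not called (adjusted p = 0.105).

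**Figure D3:**
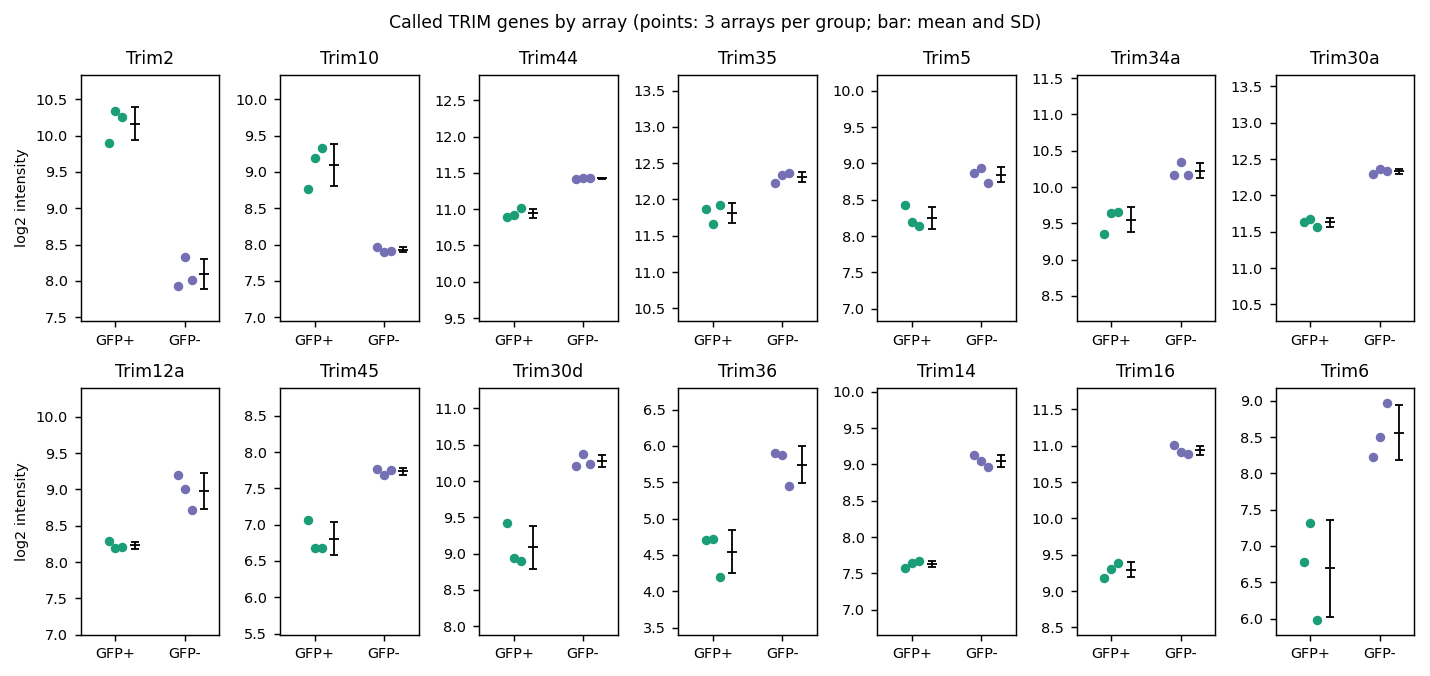
Log2 intensity of the 14 called TRIM genes is shown by array, with GFP-positive arrays left of GFP-negative arrays, 3 points for the arrays of each group, and a bar for the mean and SD. All panels span the same number of log2 units, and in each the 3 GFP-positive arrays lie apart from the 3 GFP-negative arrays.

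**Figure D4:**
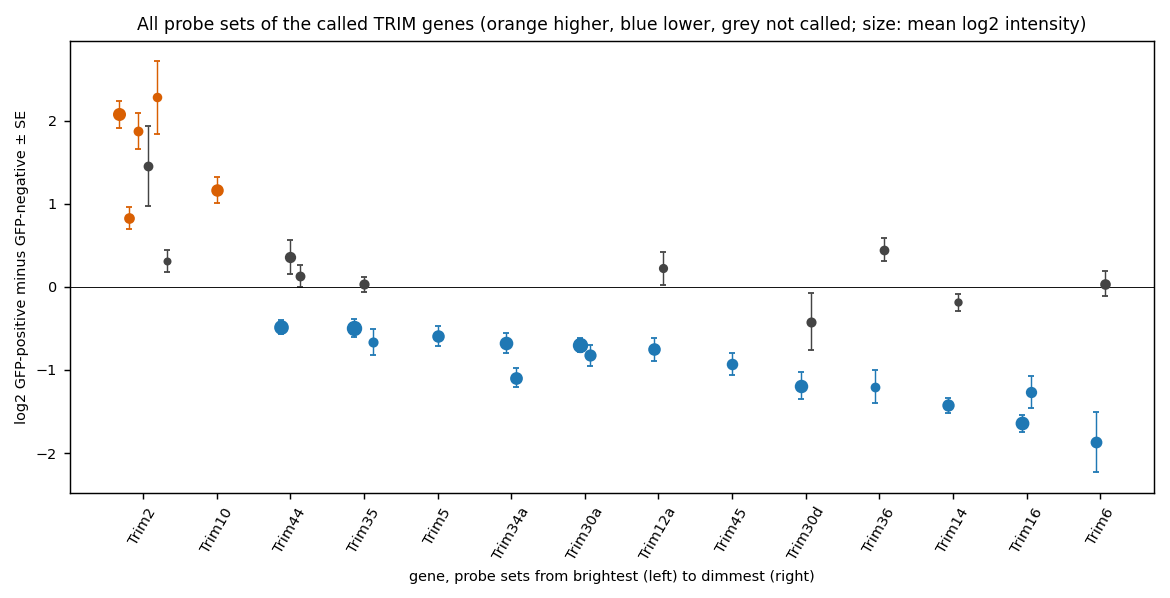
Each point is a probe set of a called TRIM gene, with its log2 difference, GFP-positive minus GFP-negative, and SE, and with a size that follows its mean intensity. Orange is called higher, blue called lower and grey not called. All 6 probe sets of Trim2 lie above 0, both of Trim16, Trim30a and Trim34a were called lower, and the second probe set of Trim36 lies at 0.45.

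The TIF1 members were not called. Trim28, the corepressor that KRAB zinc finger proteins recruit to chromatin, averaged 12.41 ± 0.14 in GFP-positive and 12.54 ± 0.08 in GFP-negative cells (-0.13, adjusted p = 0.441). Trim33, a regulator of Smad signalling needed for red cell formation in zebrafish, averaged 11.61 ± 0.05 and 11.57 ± 0.08 in those groups (0.04, adjusted p = 0.788). Trim24, a cofactor of retinoic acid receptors, averaged 8.88 ± 0.26 in GFP-positive and 8.50 ± 0.24 in GFP-negative cells (0.38, adjusted p = 0.208). Its second probe set, of like signal, gave -0.40 (adjusted p = 0.663), and a dimmer probe set gave 0.06. Trim66 was dim, at 3.88 ± 0.17 in GFP-positive and 4.41 ± 0.85 in GFP-negative cells, where array 3 read 5.39. Of 13 measured partners of these proteins, 0 were higher and 3 lower: Smad4 (-0.83, adjusted p = 0.00508), Chd3 (-0.53, adjusted p = 0.0462) and Smad3 (-0.45, adjusted p = 0.0326). Among the 13, 11 lay above the all-gene median signal, where 11.6% of genes were called higher and 15.2% lower.

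Several other members with strong signal on these arrays were not called. Trim8, a regulator of cytokine signalling, differed by -0.07, Trim27 by -0.04, Trim37, a ligase of peroxisomes and centrosomes, by 0.18 and Trim59 by 0.21. A dimmer Trim27 probe set gave -0.79 (adjusted p = 0.135), with groups that did not overlap. The other dimmer Trim27 probe sets ran from -0.44 to 0.01, and none was called. Members with groups that did not overlap numbered 6 above and 18 below, against 28.9% and 16.7% of all genes. Of these, 4 above and 6 below were not called. Trim42 (0.21), Trim54 (0.38), Trim60 (0.45) and Trim69 (0.33) lay above, and Trim21, Trim26, Trim32, Trim56, Trim62 (-1.16, adjusted p = 0.0841) and Trim68 (-1.44, adjusted p = 0.0849) lay below. Trim62 and Trim68 had differences past 2-fold, with arrays that varied widely: Trim68 read 7.38, 7.58 and 6.43 in GFP-positive arrays and 8.96, 7.71 and 9.05 in GFP-negative arrays. The dimmer Trim62 probe sets gave 0.32 and -0.09, and neither was called. The 44 uncalled genes ran from -1.44 to 0.45 with a median of 0.08. The muscle members Trim54, Trim63 and Trim72 were among them.

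Genes of the same family that carry other names and a general list of E2 enzymes were counted beside the members. Among 6 relatives, Pml, which builds nuclear bodies, was higher (10.69 ± 0.08 in GFP-positive and 10.17 ± 0.08 in GFP-negative cells, adjusted p = 0.0168). Mefv, which encodes pyrin of granulocytes and monocytes, fell by 1.78 on the log2 scale (6.66 ± 0.40 in GFP-positive and 8.44 ± 0.32 in GFP-negative cells, adjusted p = 0.00690). Of 28 E2 enzymes, 5 were higher and 1 lower. All 28 lay above the all-gene median signal, where 11.6% of genes were called higher and 15.2% lower. Ube2c, an E2 of the anaphase-promoting complex, differed by 0.72 (adjusted p = 0.00603) and Ube2l6, the E2 for the ubiquitin-like protein ISG15, by 0.68 (adjusted p = 0.0494). Ube2d1, an E2 that many RING ligases use, fell by 0.61 (adjusted p = 0.0141). Of 7 listed ubiquitin and activating enzyme genes, 2 were measured, and neither was called. Both, Uba6 (0.44) and Uba7 (-0.44), encode activating enzymes, and no ubiquitin gene was among them.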

How the data were processed

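Total RNA (5 ng per sample) was amplified and labelled with biotin for Affymetrix arrays, per the labels' protocols. The deposited values are linear intensities that the authors made with RMA, per the submitters' processing notes. For RMA, a version and settings were not given in the sources used here. Linear values spanned 4.27 to 24551. The log2 of each deposited intensity was taken with no further normalization, 64 array controls were left out, and a 2-group linear model without covariates was fitted to the 6 arrays (limma 3.58.1 under R 4.3.3, moderated 2-sided test, Benjamini-Hochberg adjustment over 45037 probe sets). The number of arrays limits the precision. The procedure was tested on simulated data.

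Gene symbols came from the platform annotation, which gives 34945 tested probe sets 1 symbol, 932 several and 9160 none. All 58 TRIM symbols are in the RefSeq table of GRCm38.p6, which gave gene order and promoter windows. Other software was numpy 2.4.6, pandas 2.3.3 and matplotlib 3.10.9, run in Python 3.11.15.

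Named TRIM genes were those past the threshold, Trim10, Trim58, the TIF1 genes, those with the strongest signal of the family (mean log2 value above 9.84), and those whose groups did not overlap without passing; other names follow gene order or role. All called genes of the interferon list are named, and up to 4 called genes of each other context list. The members and all lists were chosen with earlier results of these data known, so their counts are descriptions. Alternatives were a replicate block, an intensity trend with robust priors, repeated quantile normalization, subtraction of array medians, only the brighter probe sets, array quality weights, gene means over probe sets, a pseudocount of 16, and leaving out each array or both immunoglobulin arrays.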

Additional observations from a re-analysis of the deposited data

How the results depend on the processing

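Across 15 alternative settings, Trim2, Trim10, Trim14, Trim16, Trim30d and Trim45 were called in every one. With 1 array left out at a time, 2 genes were called higher each time and 8 to 10 lower; 8 were lower without GFP-negative array 2, GFP-negative array 3 or GFP-positive array 2, and the first of these settings lost 6 of the 12 and added Trim9 and Trim68. Probe sets called then numbered 4 to 6 higher and 11 to 13 lower, and the family median ran from -0.08 to -0.02. Without both immunoglobulin arrays, 7 genes were lower, and 3 probe sets were higher and 8 lower; the lost calls were Trim6, Trim30a, Trim34a, Trim35 and Trim44. With only the brighter probe sets tested, 3 probe sets were higher and the family median was -0.22, and Trim36 was not tested. With array medians subtracted, the family median was 0.02 and the all-gene median 0.19. Averaging all probe sets of a gene reversed Trim44 (0.0051, adjusted p = 0.973) and ended the calls of Trim12a (adjusted p = 0.183) and Trim36 (adjusted p = 0.105). The cause was not tested. Trim26 was called under 3 settings, Trim69 under 3, Trim68 under 2 and Trim9 under 1, all uncalled in the report.

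Same-numbered arrays deviated together little (r = 0.02, 0.05 and 0.02 over probe sets), so the numbers were not taken as pairs. With the replicate number as a replicate block, 2 genes were higher and 10 lower, and Trim6 (adjusted p = 0.0688) and Trim35 (adjusted p = 0.0654) lost their calls; every GFP-positive array correlated best with the GFP-negative array of its own number, a hint from the data and not from the design. Dim signal limits what the single-gene values can show, and whether probes bind transcripts of related copies was not tested.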
